A study of Rattus norvegicus with 21 samples.

Results

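INS-1 832/13, a rat insulinoma line that secretes insulin in response to glucose, was compared with and without inorganic arsenic (iAs) at the level of its mRNA. The comparison took in 9 of the 21 libraries of the series, the 5 titled as mRNA of cells given 1 µM iAs and the 4 titled as mRNA of untreated cells. Genes were kept where the mean over these 9 libraries reached 10 normalized counts, which left 14410 of 32750 genes. The series asked how arsenic, cadmium and manganese act on this line, and mRNA was sequenced for iAs alone.

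Cells of the libraries labelled iAs were exposed to 1 µM inorganic arsenic for 24 h. Cells of the libraries labelled untreated had no agent, and no vehicle is named for either group. In both groups equal numbers of cells were plated per well of 12-well plates 24 h before the exposure, and their libraries were made with a Kapa mRNA kit from purified RNA. All 9 libraries come from 1 tumour-derived line grown in culture. Whether the libraries of a group stem from separate cultures is not stated in the labels. The p-values therefore set the group difference only against the spread among these libraries, which may be technical variation. They may not carry over to separate cultures. In the labels the tissue field reads liver, which is not the tissue of the named line, and hepatocyte markers are reported with the other markers below.

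Inorganic arsenic binds protein thiols. In many mammalian cell types it frees the transcription factor NRF2 from its inhibitor KEAP1, which induces heme oxygenase and glutathione synthesis genes, and it induces metallothioneins through the zinc-sensing factor MTF1. It also blocks enzymes that carry lipoic acid, such as pyruvate dehydrogenase, and it is known to impair glucose-stimulated insulin secretion in beta cells.

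Genes known to be induced by arsenic had lower values in libraries labelled iAs than in libraries labelled untreated. The first is Hmox1 (ENSRNOG00000014117), the heme oxygenase gene of this response. It had 1478, 1633, 1175, 2337 and 2074 normalized counts in the 5 libraries labelled iAs, against 12135, 14596, 13561 and 16234 in the 4 labelled untreated. Mt1 (ENSRNOG00000038047), a metallothionein that binds zinc and other metals, had 653, 1023, 591, 1159 and 1006 normalized counts in libraries labelled iAs, against 2669, 2971, 3468 and 5575 in libraries labelled untreated. For both genes every library labelled iAs lay below every library labelled untreated. The limma test gave a log2 difference of -3.06 for Hmox1 (SE 0.17, adjusted p = 8.5e-07) and of -2.04 for Mt1 (SE 0.23, adjusted p = 8.5e-05). Gclm, the modifier subunit of glutamate-cysteine ligase in glutathione synthesis, had 1641, 1889.7, 1722, 1630.1 and 1756 normalized counts in libraries labelled iAs, against 3846, 3534, 3735 and 3267 in libraries labelled untreated (log2 difference -1.06, SE 0.07, adjusted p = 1.8e-06). Osgin1, an oxidant-induced growth inhibitor, had 92.7, 95.9, 91.9, 107 and 111 normalized counts in iAs libraries, against 312, 309, 244 and 287 in untreated libraries (log2 difference -1.52, SE 0.13, adjusted p = 1.6e-05). The groups did not overlap for these genes either. The quinone reductase gene Nqo1 (-1.07), the autophagy adaptor gene Sqstm1 (-0.65) and Gclc (-0.69), the catalytic partner of Gclm, also fell. In all, 7 of the 9 tested genes of this list fell and 0 rose (7 or 8 and 0 in the fits that left out 1 library), where over all 14410 genes 14.9% were called lower and 15.1% higher. The list's median log2 difference was -1.06, beside -7e-04 over all genes. The other two were the cystine importer gene Slc7a11 (-0.82, adjusted p = 0.41) and the thioredoxin reductase gene Txnrd1 (-0.01, adjusted p = 0.89). Mt2A was listed at 0 in all 9 libraries. A listed 0 need not mean that a transcript is absent, since Rpl22, Rpl39 and Bmpr2, which most cells use, are listed at 0 in every library too. As3mt, the arsenic methyltransferase gene, fell under the mean of 10 needed for the test, with at most 3.83 normalized counts in libraries labelled iAs and at most 5.72 in libraries labelled untreated. These directions run opposite to the textbook response to arsenic. All directions in the text rest on the group labels, and iAs libraries and untreated libraries below are the libraries so labelled. In bulk RNA, fewer cells of one kind and less RNA per cell cannot be told apart.

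The promoter of Mt1 is shown because metal response elements, the sites of MTF1, are usually found there in several copies. The 250 bases before the gene's start (RefSeq, GRCr8, chr19:10832976-10833225, minus strand) are given 5′ to 3′, with matches to TGCNCNCG in capitals.
Mt1: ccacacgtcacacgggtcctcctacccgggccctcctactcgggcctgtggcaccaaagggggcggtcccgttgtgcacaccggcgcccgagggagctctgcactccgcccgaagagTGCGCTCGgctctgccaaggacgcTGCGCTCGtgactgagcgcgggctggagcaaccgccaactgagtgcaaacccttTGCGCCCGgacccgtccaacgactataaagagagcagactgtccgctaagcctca
Both strands were searched, from 250 bases before to 50 after the start. The window of Mt1 held 3 matches. Of 33469 RefSeq promoter windows, 11.8% held at least 1 match and 0.359% held at least 3. Letters of the NRF2 element, TGACNNNGC, occurred 1 time in this window and in 12.1% of all windows. A match is a description of letters and shows no binding. Of 6 genes looked up 4 were found, with Hmox1 and Txnip missing. The windows of Icam1 and Cxcl10 held no match to the 1 pattern of letters searched for the NF-kB site, found in 1.53% of all windows. Sites that differ from this pattern were not searched, so no absence of NF-kB sites is shown.

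Sequencing depth is unknown, since the scaling of the values takes it out. Scaled totals ran from 52495200 to 55869200 normalized counts in libraries labelled iAs and from 51009800 to 53711000 in libraries labelled untreated. Genes with at least 1 normalized count numbered 15946 to 16703 in iAs libraries and 16146 to 16692 in untreated libraries (exact permutation p = 0.90, two-sided, adjusted p = 0.90 over 4 comparisons of single values). The first principal component, 32.1% of the variance, separated the groups. The second, 14.4%, followed the ending of the library code in the untreated group and only in part in the iAs group. On it iAs replicate 2 and untreated replicate 4, which share an ending, were lowest in their groups. Untreated replicate 2, which shares an ending with iAs replicate 3, was highest of all, while iAs replicate 1, of ending 52, lay above iAs replicate 3. What the ending stands for is not given in the labels. The iAs effect differed between ending 52 and the other endings in 3 genes, 0.0208% of 14410 (limma interaction, 440 at an unadjusted p under 0.05). The iAs libraries carry lane 4 and the untreated libraries lane 3 in their labels, and the effects of lane and of group cannot be told apart.

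**Figure D1:**
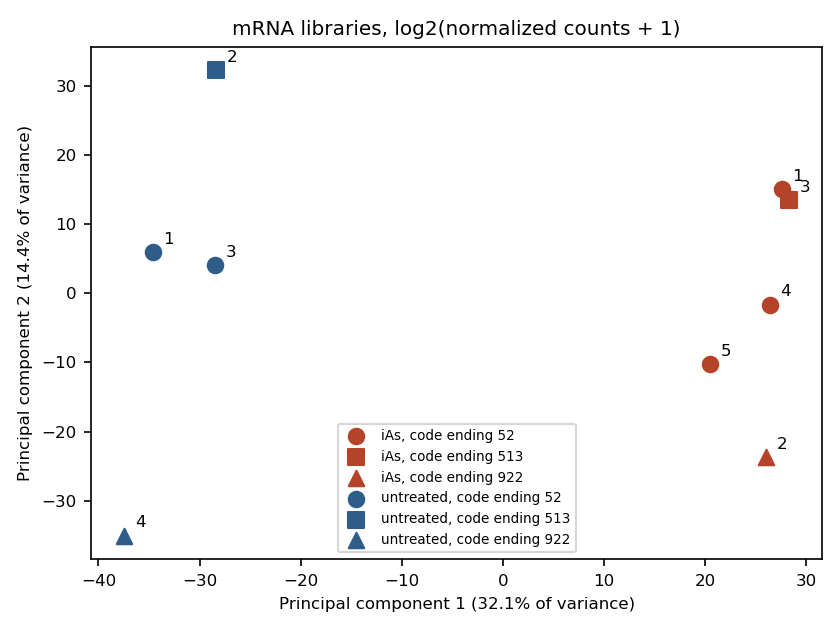
Each point is 1 mRNA library placed by the first 2 principal components of log2(normalized counts + 1), coloured by group and shaped by the ending of its library code, with its replicate number. The 5 libraries labelled iAs lie between 20.5 and 28.3 on the first component and the 4 labelled untreated between -37.4 and -28.3, while untreated replicates 2 and 4, of the less common endings, take the high and low ends of the second.

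Of the 14410 genes 4321 were called (adjusted p under 0.05, limma), 30.0% in all, with 2181 higher and 2140 lower in libraries labelled iAs. The groups had no overlap in 25.9% of all genes and in 3435 of the called genes. Most called differences were small. Called genes past 1.5-fold numbered 564 higher and 623 lower, those past 2-fold 215 and 240, and those past 4-fold 35 and 43. Calls became more frequent with abundance. Between 10 and 100 normalized counts 13.5% of 2494 genes were called, with a median absolute log2 difference of 1.27 among those called. At 10000 or more, 46.2% of 986 genes were called, with a median of 0.32, and 281 of these were higher against 175 lower. Low genes pass the test only with a large difference, so these medians do not compare the sizes of response. In every fit that left out 1 library, 1523 genes remained called higher and 1469 lower.

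**Figure D2:**
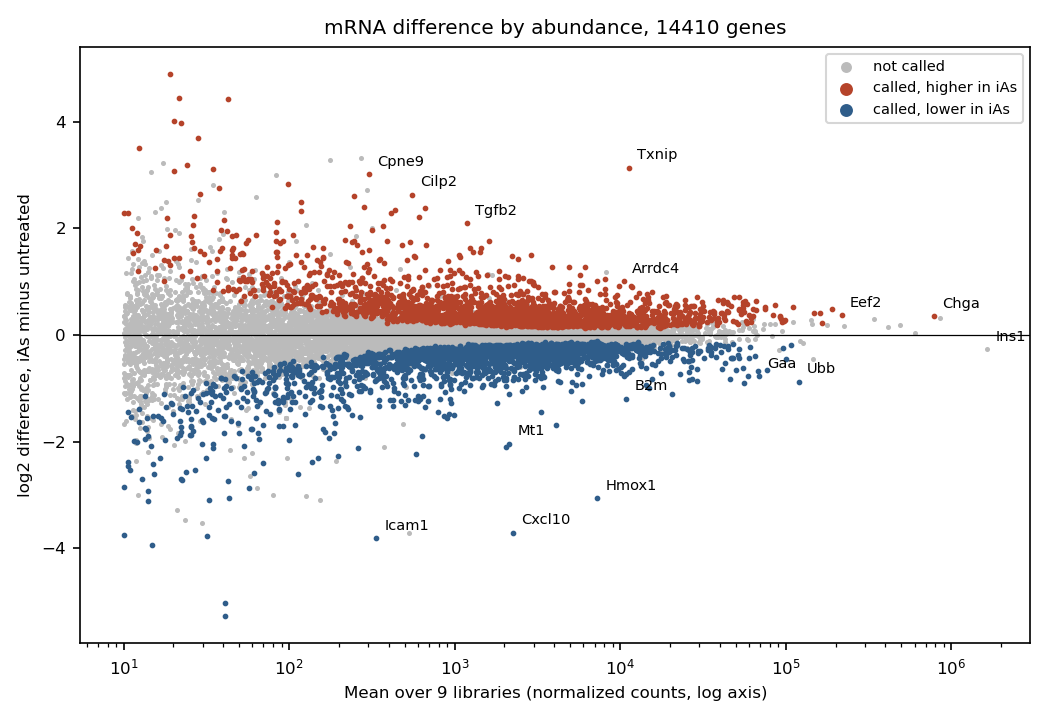
Each point is 1 of 14410 genes, with its mean over the 9 libraries on a log axis in normalized counts and its log2 difference, iAs minus untreated, on the log2(value + 1) scale. The 2181 red points were called higher and the 2140 blue points lower, and among the points named in the plot Txnip lies at 3.14, Icam1 at -3.82 and Ins1, which was not called, at -0.27.

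The genes were read through 30 lists of pathways and families. Against the share of all genes, 15.1% higher and 14.9% lower, calls in 1 direction were most frequent among arsenic-inducible, interferon, NF-kB, V-ATPase and lysosomal genes on the lower side, and among ChREBP targets, cytosolic ribosomal proteins and clock genes on the higher side.

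**Figure D3:**
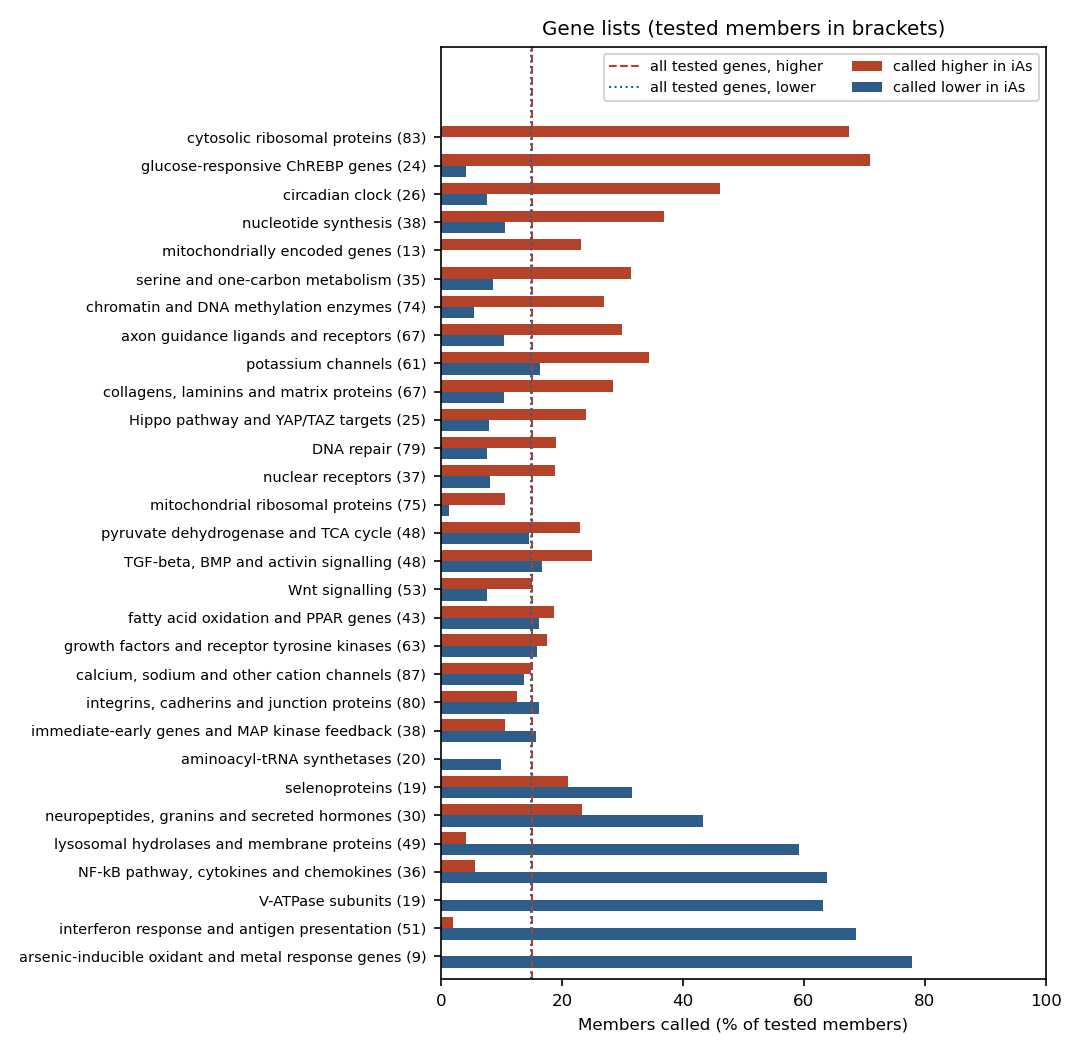
For each of 30 gene lists, bars give the percentage of tested members called higher (red) and lower (blue) in libraries labelled iAs, with the number of tested members in brackets and vertical lines at the shares over all tested genes, 15.1% and 14.9%. Cytosolic ribosomal proteins had 67.5% of 83 members higher and 0 lower, while interferon and antigen presentation genes had 1.96% higher and 68.6% of 51 lower.

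Genes of the NF-kB pathway and its cytokines fell in 23 of 36 tested members and rose in 2, with a median log2 difference of -0.50. NF-kB is a dimer of REL proteins held in the cytosol by IkB proteins until a signal removes them. Among the secreted targets, the chemokine gene Cxcl10 had 223, 537, 349.8, 310.1 and 389 normalized counts in libraries labelled iAs, against 5499, 3633, 4349.6 and 4947 in libraries labelled untreated (log2 difference -3.71, SE 0.21, adjusted p = 8.5e-07). Cxcl11, a ligand of the same receptor, had 189, 228, 196, 247 and 241 in iAs libraries, against 1245, 869, 997 and 1068 in untreated libraries (log2 difference -2.24, SE 0.12, adjusted p = 8.5e-07). The adhesion molecule gene Icam1, which leukocytes bind through integrins, had 39.9, 49.2, 30.7, 47.9 and 85.4 normalized counts in libraries labelled iAs, against 803, 718, 687 and 558 in libraries labelled untreated (log2 difference -3.82, SE 0.25, adjusted p = 2.4e-06). None of these 3 overlapped between the groups, and the untreated values were several times the iAs values in every library. The pathway's own subunits fell by less. Nfkb2 differed by -1.44 in log2 (adjusted p = 2.8e-05), Relb by -0.94, Nfkb1 by -0.32 and Rela by -0.32. The inhibitor genes Nfkbia (-0.82), Nfkbib (-0.52) and Nfkbie (-0.96), which are themselves NF-kB targets in part, fell with them. The members that rose were Cd40, a receptor of the TNF family, with 67.9, 139, 49.4, 75.5 and 71.2 normalized counts in iAs libraries, against 15.4, 22, 26.1 and 27.7 in untreated libraries (log2 difference 1.72, SE 0.31, adjusted p = 0.0015), and the interleukin 1 receptor gene Il1r1 (log2 difference 0.37, SE 0.09, adjusted p = 0.007). Tnf, Il6, Vcam1 and Ccl5 were listed at 0 in every library.

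Interferon response and antigen presentation genes fell in 35 of 51 tested members and rose in 1 (median -0.51). B2m, the invariant chain of class I molecules, had 6128, 5922, 6431, 8289.9 and 7883 normalized counts in libraries labelled iAs, against 16579.8, 13450.5, 16145 and 16969.8 in libraries labelled untreated (log2 difference -1.20, SE 0.11, adjusted p = 1.7e-05). The class I gene RT1-A1 (-0.63) and the peptide-loading gene Tapbp (-0.74) fell with it. Sequence is shared among rat class I genes, so the split of reads between RT1-A1 and its relatives is uncertain. Oasl2, of the family of oligoadenylate synthetases, had 47.5, 75.6, 74.3, 77.5 and 96.4 normalized counts in iAs libraries, against 356, 409, 346 and 306 in untreated libraries (log2 difference -2.27, SE 0.19, adjusted p = 1.2e-05). Dtx3l, a ubiquitin ligase that works with PARP9, had 413, 478, 444, 395 and 415 in iAs libraries, against 1097, 926, 1095 and 918 in untreated libraries (log2 difference -1.23, SE 0.09, adjusted p = 5.7e-06). Parp14, an ADP-ribosyltransferase, had 1051, 943, 1061, 982 and 1019 in iAs libraries, against 2155, 2041, 2177 and 1656 in untreated libraries (log2 difference -0.98, SE 0.08, adjusted p = 1.4e-05). All 4 separated the groups with no overlap. Among the factors that carry the interferon signal, Stat2 (-0.93), Irf9 (-0.63) and Irf1 (-0.46) fell, while the kinase genes Jak1 (-0.12, adjusted p = 0.11) and Jak2 (-0.01, adjusted p = 0.95) were not called. Tmem173, which encodes the DNA-sensing adaptor STING and is in neither list, had 703, 839, 770.4, 915 and 898 normalized counts in iAs libraries, against 3619.6, 2834, 3568 and 4187 in untreated libraries (log2 difference -2.10, SE 0.11, adjusted p = 7.8e-07). The member that rose was the exonuclease gene Isg20 (log2 difference 0.20, SE 0.05, adjusted p = 0.0084). Markers of fibroblasts, endothelium and immune cells were summed beside these lists. Their sum ran from 6183 to 8955 normalized counts in libraries labelled iAs and from 9678 to 13160 in libraries labelled untreated, most of it from Thy1. The leukocyte marker Ptprc and the pericyte marker Pdgfrb were listed at 0 in all 9 libraries.

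**Figure D4:**
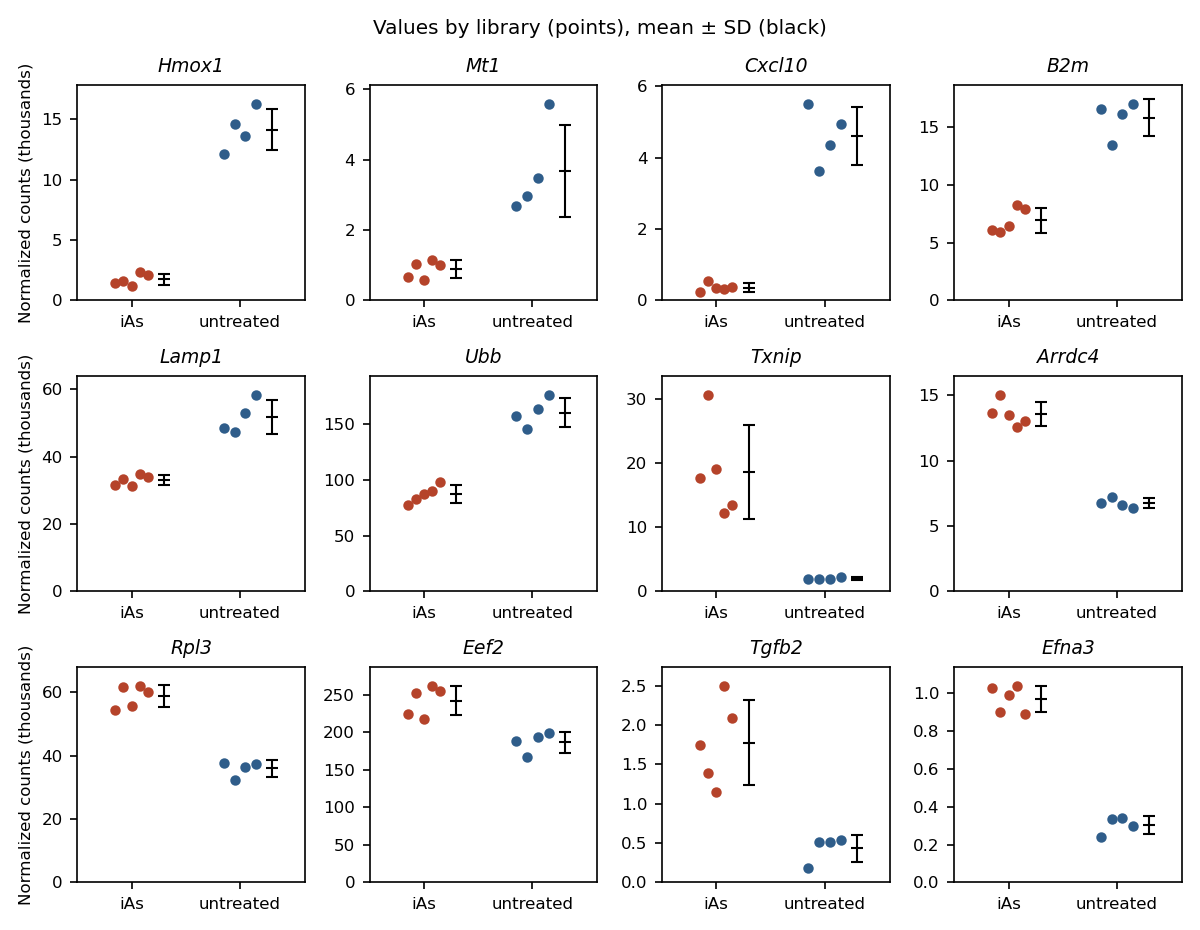
Points are the normalized counts, in units of 1000, of 12 genes in each library, with the mean and SD in black, for the 5 libraries labelled iAs on the left and the 4 labelled untreated on the right of each panel. In the first 6 panels, Hmox1 to Ubb, every iAs library lies under every untreated library, and in the last 6, Txnip to Efna3, every iAs library lies over them.

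Lysosomal genes fell in 29 of 49 tested members and rose in 2 (median -0.30). Lamp1, a main membrane glycoprotein of lysosomes, had 31689, 33497, 31230.4, 34851 and 34073 normalized counts in libraries labelled iAs, against 48560.5, 47416, 53069 and 58319.7 in libraries labelled untreated (log2 difference -0.65, SE 0.07, adjusted p = 4.8e-05). The acid alpha-glucosidase gene Gaa, which degrades lysosomal glycogen, had 48634, 47816, 45295, 61279.9 and 60387 in iAs libraries, against 86952, 87036, 92242 and 91536 in untreated libraries (log2 difference -0.77, SE 0.09, adjusted p = 0.0001). The groups did not overlap for either gene. Naglu, which degrades heparan sulfate, fell as well (-0.52), as did the protease genes Ctsl (-0.72) and Ctsd (-0.43) and the tetraspanin gene Cd63 (-0.67). Ctsb (-0.09, adjusted p = 0.31) was not called. Of the factors that switch on lysosomal genes, Tfe3 fell by 0.36 in log2 and Tfeb differed by 0.09 (adjusted p = 0.28). Together the lysosomal genes took 0.868% ± 0.052 of the library total in libraries labelled iAs (SD, n = 5) and 1.19% ± 0.0594 in libraries labelled untreated (SD, n = 4). Arsb (0.25) and Cd68 (0.83, adjusted p = 0.05) rose, but Cd68 lost its call in each fit without 1 library except those without iAs replicate 2 or iAs replicate 4, which left 1 rise.

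The proton pump that acidifies lysosomes and secretory granules moved the same way. Of 19 tested V-ATPase subunit genes 12 fell and 0 rose (median -0.35). Atp6v0a1, of the membrane sector, had 21554, 20579.6, 20272, 20215 and 20896 normalized counts in libraries labelled iAs, against 26362, 27848, 29176 and 29246 in libraries labelled untreated (log2 difference -0.44, SE 0.05, adjusted p = 6.8e-05). Atp6v1d, of the cytosolic sector, had 2100.0, 2099, 1948, 2462 and 2506 in iAs libraries, against 3369, 3086, 3765 and 3892 in untreated libraries (log2 difference -0.67, SE 0.09, adjusted p = 0.00025). Neither overlapped. The catalytic subunit gene Atp6v1a (-0.04, adjusted p = 0.61) and its nucleotide-binding partner Atp6v1b2 (-0.02, adjusted p = 0.86) were not called. The largest loss of normalized counts in any called gene without overlap was that of the polyubiquitin gene Ubb, with 77800, 82568, 87010.3, 89841 and 98387 in libraries labelled iAs, against 156594, 145090, 163018 and 175706 in libraries labelled untreated (log2 difference -0.88, SE 0.08, adjusted p = 2.2e-05). Other large losses were in the granule membrane protein gene Ptprn, with 43342, 43597, 42404, 47874 and 47019 in iAs libraries, against 77317, 77928, 77309.9 and 74899 in untreated libraries (log2 difference -0.78, SE 0.05, adjusted p = 3.7e-06), and in LOC100360087 (-0.90) and Tmem130 (-0.62).

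Glucose-responsive genes of the factor ChREBP, which binds carbohydrate response elements as a dimer with MLX, rose in 17 of 24 tested members and fell in 1 (median 0.52). Txnip, an inhibitor of thioredoxin and of glucose uptake, had 17679.7, 30615, 19064, 12298 and 13448 normalized counts in libraries labelled iAs, against 1885, 2009, 1873 and 2264 in libraries labelled untreated (log2 difference 3.14, SE 0.21, adjusted p = 2.5e-06). Its iAs libraries were unequal, with replicate 2 the highest, but the lowest of them was still far above every untreated library. Arrdc4, a relative of Txnip in the alpha-arrestin family, had 13628, 15014, 13496, 12548 and 13035 in iAs libraries, against 6785, 7241, 6618 and 6354 in untreated libraries (log2 difference 1.00, SE 0.06, adjusted p = 1.5e-06). Rgs16, a regulator of G protein signalling, had 7252, 9485, 7163, 6859.9 and 6978 in iAs libraries, against 3367, 3478, 3308 and 3585 in untreated libraries (log2 difference 1.13, SE 0.09, adjusted p = 5.9e-06). Neither overlapped between groups. Enzymes of the list rose by less, such as the pyruvate kinase gene Pklr (0.61), the glycerol phosphate dehydrogenase gene Gpd1 (0.77) and the lipogenic genes Acaca (0.70) and Acly (0.51). The member that fell was the fructose kinase gene Khk (log2 difference -0.66, SE 0.10, adjusted p = 0.00048), and falls numbered 2 without untreated replicate 4. Mlx (-0.13, adjusted p = 0.079) was not called.

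The Arrdc4 promoter is shown because carbohydrate response elements are built of E-box letters. The 250 bases before its start (RefSeq, GRCr8, chr1:131793426-131793675, minus strand) carry in capitals a pair of overlapping matches to ACGTGC, the core of the hypoxia element, which form a CACGTG E-box.
Arrdc4: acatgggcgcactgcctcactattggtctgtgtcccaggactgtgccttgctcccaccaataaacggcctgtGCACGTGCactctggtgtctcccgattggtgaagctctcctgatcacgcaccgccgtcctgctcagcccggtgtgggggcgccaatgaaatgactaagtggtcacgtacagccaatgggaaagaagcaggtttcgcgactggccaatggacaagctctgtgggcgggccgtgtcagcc
Of all windows, 5.73% held ACGTGC on either strand. The longer pattern searched for the carbohydrate response element, a pair of E-boxes at fixed spacing, was not in this window and in 0.332% of all windows. Elements that differ from this pattern were not searched, so no absence of a carbohydrate response element is shown.

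Of 48 tested genes of pyruvate dehydrogenase and the TCA cycle 11 rose and 7 fell (median 0.05). These are 22.9% and 14.6%, beside 15.1% and 14.9% over all genes. The pyruvate dehydrogenase subunit gene Pdhb had 6167, 6883, 6708, 6545 and 6300.2 normalized counts in libraries labelled iAs, against 5104, 4514, 4887 and 4388 in libraries labelled untreated (log2 difference 0.47, SE 0.06, adjusted p = 0.00013). The inhibiting kinase gene Pdk1 had 2429, 2258, 2179, 2499 and 2475 in iAs libraries, against 1272, 1725, 1439.8 and 1554 in untreated libraries (log2 difference 0.67, SE 0.09, adjusted p = 0.00016). The groups did not overlap for either gene. Pdha1, the other part of the first enzyme, rose (0.39), whereas Dlat (0.11, adjusted p = 0.19) and Dld (0.08, adjusted p = 0.32), whose products carry or use the lipoic acid that arsenic binds, were not called. The NADPH-producing genes Idh1 (-0.58) and Me1 (-0.44) and the mitochondrial pyruvate carrier gene Mpc1 (-0.44) fell. Of 43 tested fatty acid oxidation and PPAR genes 8 rose and 7 fell (median 0.08), 18.6% and 16.3%, close to the shares over all genes. The coactivator gene Ppargc1a (-1.22) and the uncoupling protein gene Ucp2 (-0.38) fell, and Fabp5 (0.61), Acaa2 (0.69) and Acsl6 (0.43) rose. Falls in this list numbered 4 without iAs replicate 3 or untreated replicate 1.

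Cytosolic ribosomal proteins, the protein part of the ribosomes that translate nuclear genes, rose in 56 of 83 tested members and fell in 0 (median 0.34), with 2 falls without untreated replicate 2. Rpl3 had 54508, 61831, 55664, 61982 and 60119 normalized counts in libraries labelled iAs, against 37735, 32220.1, 36421 and 37522 in libraries labelled untreated (log2 difference 0.71, SE 0.07, adjusted p = 2.2e-05). Rpl4 had 45432, 51051, 46338, 52735 and 51164 in iAs libraries, against 33493, 28537, 33523 and 34865 in untreated libraries (log2 difference 0.60, SE 0.07, adjusted p = 9.9e-05). In both, untreated replicate 2 was the lowest library, and the groups did not overlap. Together the ribosomal protein genes took 5.18% ± 0.278 of the total in libraries labelled iAs (SD, n = 5; 4.78% to 5.41%) and 4.09% ± 0.364 in libraries labelled untreated (SD, n = 4; 3.55% to 4.34%). Ribosomal protein genes have many processed copies, and how reads were split among them is not given in the sources used here. The elongation factor gene Eef2 had 224347, 252776, 217800, 261504 and 254869 normalized counts in iAs libraries, against 187804, 167276, 193132 and 198585 in untreated libraries (log2 difference 0.37, SE 0.08, adjusted p = 0.0054), and Eef1a1 (0.41), the stalk protein gene Rplp0 (0.41) and the ribosome-bound scaffold gene Rack1 (0.63) were among the largest gains in normalized counts.

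Mitochondrial ribosomal proteins, which translate the genes of mitochondrial DNA, had few calls. Of 75 tested genes 8 rose and 1 fell, a share of 10.7% and 1.33% beside 15.1% and 14.9% over all genes (median 0.01). The largest rises by adjusted p were Mrpl50 (log2 difference 0.56, SE 0.07, adjusted p = 0.00016) and Mrps6 (0.58), and Mrpl49 fell (-0.28). Rises numbered 5 without untreated replicate 3 and falls 5 without untreated replicate 2. Of 20 aminoacyl-tRNA synthetase genes 0 rose and 2 fell (median -0.11), among them the histidyl-tRNA synthetase gene Hars (log2 difference -0.25, SE 0.05, adjusted p = 0.0031). The falls numbered 4 without iAs replicate 2 and 1 without each other library except untreated replicate 2, and 1 gene rose without untreated replicate 4. Of the 13 genes encoded in mitochondrial DNA 3 rose and 0 fell (median 0.28), Mt-atp8 (log2 difference 0.48, SE 0.12, adjusted p = 0.01), Mt-nd5 (0.35) and Mt-nd1 (0.49), with 5 rises without untreated replicate 4. Mt-nd1 lost its call without iAs replicate 4, iAs replicate 5 or untreated replicate 2 (adjusted p between 0.051 and 0.055). The share of these genes in the total was 6.05% ± 0.809 in iAs libraries (SD, n = 5) and 5.17% ± 0.662 in untreated libraries (SD, n = 4), which overlapped (exact permutation p = 0.13, adjusted p = 0.27 over 4 comparisons).

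**Figure D5:**
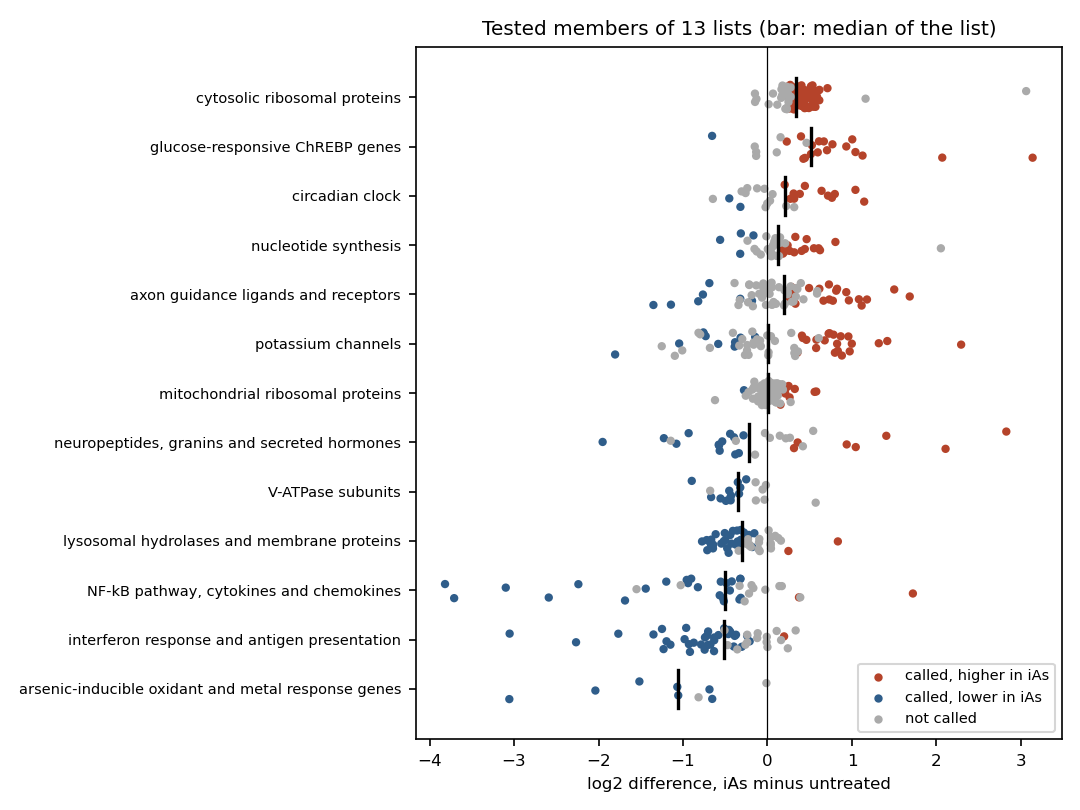
Each point is 1 tested member of 13 gene lists at its log2 difference, iAs minus untreated, coloured where called higher or lower, with a black bar at the list's median. The medians run from 0.52 for ChREBP genes and 0.34 for cytosolic ribosomal proteins to -0.51 for interferon genes and -1.06 for arsenic-inducible genes, with mitochondrial ribosomal proteins at 0.01.

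Nucleotide and one-carbon metabolism genes had more rises than falls. Of 38 nucleotide synthesis genes 14 rose and 4 fell (median 0.13). These are 36.8% and 10.5%, beside 15.1% and 14.9% over all genes. Ctps1, which makes CTP, had 4965, 5333, 5189.6, 4659.9 and 4621 normalized counts in libraries labelled iAs, against 2935, 2584, 2903 and 2920.1 in libraries labelled untreated (log2 difference 0.80, SE 0.06, adjusted p = 5.9e-06). Impdh2, of guanine nucleotide synthesis, had 5916, 6511, 5562, 6553 and 5981 in iAs libraries, against 3920.5, 3394, 3904 and 4727 in untreated libraries (log2 difference 0.62, SE 0.09, adjusted p = 0.00027). Neither overlapped, with untreated replicate 2 lowest in both. Of 35 tested genes of serine, folate, methyl and polyamine metabolism 11 rose and 3 fell, 31.4% and 8.57% (median 0.08). The spermine synthase gene Sms (0.59), Ahcy (0.48), which clears the product of methylation, and the cytosolic serine hydroxymethyltransferase gene Shmt1 (0.31) rose. Sat1 (-0.83), which breaks down polyamines, Mat1a (-0.75), which makes the methyl donor, and Fpgs (-0.31) fell.

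In DNA repair genes the share of rises was near that over all genes, and the share of falls was smaller. Of 79 tested repair genes 15 rose and 6 fell (median 0.07). These are 19.0% and 7.59%, beside 15.1% and 14.9% over all genes. The base excision genes Tdg, with 7781, 8305, 8085, 7888 and 7458 normalized counts in libraries labelled iAs, against 5274, 5155, 5154 and 5475 in libraries labelled untreated (log2 difference 0.59, SE 0.05, adjusted p = 9.2e-06), and Ung (0.65), both glycosylases that remove bases, rose. Mgmt, which removes alkyl groups from guanine, had 1461, 1615, 1534, 1779 and 1749 in iAs libraries, against 2644, 2580.4, 2619 and 2850.3 in untreated libraries (log2 difference -0.72, SE 0.07, adjusted p = 3.1e-05). Neither Tdg nor Mgmt overlapped. Ercc1 (-0.47), of nucleotide excision, and Xrcc6 (-0.29), of end joining, fell. The rises came to 7 when untreated replicate 3 was left out and to 9 when untreated replicate 4 was. Of 74 tested chromatin and DNA methylation enzymes 20 rose and 4 fell, 27.0% and 5.41% (median 0.06). The arginine methyltransferase genes Carm1 (0.52) and Prmt3 (0.61) and the Polycomb gene Suz12 (0.41) rose, and the deacetylase genes Hdac11 (log2 difference -0.60, SE 0.07, adjusted p = 7.4e-05) and Hdac3 (-0.36) fell.

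Circadian clock genes, a feedback loop of activators and repressors with many output factors, rose in 12 of 26 members and fell in 2 (median 0.21). Their shares were 46.2% and 7.69%, beside 15.1% and 14.9% over all genes. Nr1d1, a repressing nuclear receptor of the loop, had 1263, 1322, 1052, 1174 and 1204 normalized counts in libraries labelled iAs, against 622, 691, 679.9 and 969.6 in libraries labelled untreated (log2 difference 0.72, SE 0.12, adjusted p = 0.00098). The output factor gene Hlf had 366, 342, 248, 358 and 305 in iAs libraries, against 134, 134, 151 and 160.3 in untreated libraries (log2 difference 1.14, SE 0.14, adjusted p = 0.00012). Neither overlapped. Bhlhe40 (1.04), another repressor, rose and Cry2 (-0.45) fell, while the core genes Clock (0.03, adjusted p = 0.68) and Per1 (-0.02, adjusted p = 0.93) were not called. Falls numbered 1 without iAs replicate 4, untreated replicate 2 or untreated replicate 3. Among 37 tested nuclear receptors, 7 rose, with Nr1d1 and the thyroid hormone receptor gene Thra (0.53) among them, and 3 fell (median 0.01). These are 18.9% and 8.11%, beside 15.1% and 14.9% over all genes. The falls numbered 1 without iAs replicates 1, 3 or 4 or untreated replicates 2 or 4, and 0 without untreated replicate 1 or 3.

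Immediate-early and MAP kinase feedback genes had 4 rises and 6 falls among 38 tested (median -0.04). These are 10.5% and 15.8%, not above or close to the 15.1% and 14.9% over all genes. Klf2, a zinc finger factor, had 852, 809, 808, 796 and 721 normalized counts in libraries labelled iAs, against 349.8, 305, 247 and 250.3 in libraries labelled untreated (log2 difference 1.48, SE 0.11, adjusted p = 5.9e-06). The growth regulator gene Myc had 8315, 11343, 8132, 6886 and 6437 in iAs libraries, against 2738, 2786, 3037 and 5384 in untreated libraries (log2 difference 1.27, SE 0.20, adjusted p = 0.00068), and Klf10 rose by 0.93. Maff, a small partner of NRF2, had 426, 669, 364, 446 and 449.7 in iAs libraries, against 1172, 1203, 1228 and 1817 in untreated libraries (log2 difference -1.53, SE 0.17, adjusted p = 7.6e-05). In both Myc and Maff iAs replicate 2 and untreated replicate 4, which share a code ending, were the highest of their groups, and the groups did not overlap. The phosphatase gene Dusp5 (-0.37) and the cAMP-responsive factor gene Crem (-0.71) fell.

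Of 48 tested genes of TGF-beta, BMP and activin signalling 12 rose and 8 fell (median 0.01), 25.0% and 16.7%, beside 15.1% and 14.9% over all genes. The ligand gene Tgfb2 had 1746, 1395, 1147, 2492 and 2088 normalized counts in libraries labelled iAs, against 180.2, 514, 517 and 533 in libraries labelled untreated (log2 difference 2.09, SE 0.31, adjusted p = 0.00048). Untreated replicate 1 stood under the other untreated libraries, and all iAs libraries were above them. Gdf15, a stress-induced ligand, had 356, 870.2, 331, 479 and 429 in iAs libraries, against 1315, 1102, 1155 and 2029.5 in untreated libraries (log2 difference -1.55, SE 0.26, adjusted p = 0.00095). The secreted antagonist gene Fstl3 (0.68) rose, and the intracellular inhibitor gene Smad7 (log2 difference -0.76, SE 0.09, adjusted p = 9.3e-05) and the pseudoreceptor gene Bambi (-0.49) fell. Falls numbered 5 without untreated replicate 3. Of 53 tested Wnt genes 8 rose and 4 fell, 15.1% and 7.55% (median 0.06), with the rises at the share over all genes. The receptor gene Fzd1 had 278, 443, 250.3, 426 and 339.6 in iAs libraries, against 100.2, 46.1, 121 and 79.8 in untreated libraries (log2 difference 2.04, SE 0.27, adjusted p = 0.00018), the ligand gene Wnt5a rose (0.99), and Wls (-0.42), which carries Wnt proteins to the surface, fell. The libraries of the 2 groups did not overlap for Fzd1.

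Of 25 tested Hippo pathway genes 6 rose and 2 fell, 24% and 8% (median 0.14). Vgll4 (0.50), a competitor of YAP, and Mob1b (0.58) were higher and the kinase gene Stk4 (-0.22) was lower. The falls numbered 1 without each single library except iAs replicate 1 and untreated replicate 4. Of 63 tested growth factors and receptor tyrosine kinases 11 rose and 10 fell (median 0.01), 17.5% and 15.9%, close to the shares over all genes of 15.1% and 14.9%. Ret, the receptor of GDNF ligands, had 1624, 1531, 1408, 1320.1 and 1408 normalized counts in libraries labelled iAs, against 490.2, 727, 591 and 834 in libraries labelled untreated (log2 difference 1.17, SE 0.13, adjusted p = 8.3e-05). The FGF receptor gene Fgfr1 had 4459, 4126, 3755, 4422 and 3818 in iAs libraries, against 2054, 2613, 2349.8 and 2693 in untreated libraries (log2 difference 0.77, SE 0.09, adjusted p = 7.4e-05). Both had all iAs libraries above all untreated libraries. Igfbp5 (1.33), which binds insulin-like growth factors, rose, and their receptor gene Igf1r (-0.57) fell, as did Met (-0.56) and Vegfb (-0.57). Falls in this list numbered 5 without iAs replicate 1 or untreated replicate 3 and 6 without iAs replicate 3 or untreated replicates 1 or 4.

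Axon guidance genes, also used by islet cells for contact signalling, rose in 20 of 67 tested members and fell in 7 (median 0.20). Their shares were 29.9% and 10.4%, beside 15.1% and 14.9% over all genes. The ephrin gene Efna3 had 1024, 902, 989, 1036 and 890.0 normalized counts in libraries labelled iAs, against 241, 336, 339 and 296 in libraries labelled untreated (log2 difference 1.68, SE 0.11, adjusted p = 2.4e-06). Efnb1, another ephrin, had 4997, 4975, 4317, 5292 and 4964 in iAs libraries, against 2370.2, 3299, 2559 and 3015 in untreated libraries (log2 difference 0.81, SE 0.09, adjusted p = 8.6e-05). The netrin receptor gene Unc5a had 5560.1, 6245, 5600.0, 5661 and 5443 in iAs libraries, against 3460.3, 3617, 3631 and 3683 in untreated libraries (log2 difference 0.66, SE 0.05, adjusted p = 6.7e-06). None of these overlapped. The semaphorin gene Sema4a (log2 difference -0.82, SE 0.08, adjusted p = 2.1e-05) and the netrin receptor gene Unc5c (-0.32) fell, and falls numbered 4 without untreated replicate 3.

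Of 67 tested collagen, laminin and matrix genes 19 rose and 7 fell (median 0.04), and 79 of the 146 found in the table lay under the mean of 10. The shares among those tested were 28.4% and 10.4%, beside 15.1% and 14.9% over all genes. Mmp17, a membrane-anchored metalloproteinase, had 1035, 1054, 1039.6, 782 and 788 normalized counts in libraries labelled iAs, against 179, 216, 234 and 179 in libraries labelled untreated (log2 difference 2.21, SE 0.13, adjusted p = 1.5e-06). The matrix gene Cilp2 had 1039, 899, 1106, 745 and 621 in iAs libraries, against 137, 180.3, 132 and 113 in untreated libraries (log2 difference 2.63, SE 0.18, adjusted p = 3.3e-06). Both were several times higher in every iAs library. Col9a1 (0.60) rose, and Col16a1 (-0.91), the proteoglycan gene Fmod (-0.94) and Emilin1 (-0.53) fell, with 4 falls without untreated replicate 2. Integrins, cadherins and junction proteins had 10 rises and 13 falls among 80 tested (median 0.00035), 12.5% and 16.25%, close to the shares over all genes. The integrin subunit gene Itgb1 (0.34), Jup (0.34), which links cadherins to the cytoskeleton, and Cadm3 (0.79) rose, and Itga3 (-0.31) and Jam3 (-0.46) fell. Rises numbered 6 without iAs replicate 5 or untreated replicate 4.

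Secreted peptides of the line had 13 falls and 7 rises among 30 tested neuropeptide, granin and hormone genes (median -0.22). The share of falls was 43.3% and that of rises 23.3%, beside 14.9% and 15.1% over all genes. Scg3, a granin that binds chromogranin A to granule membranes, had 32973, 35798, 34413, 38282 and 37700.4 normalized counts in libraries labelled iAs, against 52275, 48401, 52638 and 54328 in libraries labelled untreated (log2 difference -0.54, SE 0.06, adjusted p = 7.4e-05). Nucb2, the precursor of nesfatin, fell (-0.34), as did Vgf (-0.44), Scg2 (-0.40) and the satiety peptide gene Cartpt (-1.23). Prok2, a peptide ligand of G protein-coupled receptors, had 145, 168, 98.2, 224 and 160.1 in iAs libraries, against 20.8, 15.4, 18.3 and 31.7 in untreated libraries (log2 difference 2.83, SE 0.27, adjusted p = 3e-05). The endothelin gene Edn1 had 125, 95.8, 123, 137 and 152 in iAs libraries, against 11.4, 26.2, 51.4 and 40.6 in untreated libraries (log2 difference 2.11, SE 0.36, adjusted p = 0.0011). Scg3 was lower and the other two were higher in every library labelled iAs. Chga, chromogranin A, had the largest gain in normalized counts among called genes without overlap, with 923690, 850522, 930088, 837541 and 825853 in libraries labelled iAs, against 641424, 752532, 626553 and 711288 in libraries labelled untreated (log2 difference 0.36, SE 0.10, adjusted p = 0.017). Chga lost its call without untreated replicate 1 or untreated replicate 3 (adjusted p = 0.058 and 0.061). Its relative Chgb differed by 0.03 (adjusted p = 0.83). Falls in the list numbered 8 without untreated replicate 4.

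Beta cell markers were present in both groups. All 19 beta cell markers found were tested, with 1 rise and 5 falls (median -0.09). These are 5.26% and 26.3%, beside 15.1% and 14.9% over all genes. The sum of these markers ran from 1622960 to 2173790 normalized counts in libraries labelled iAs and from 2046380 to 2541750 in libraries labelled untreated. Ins1 held the most normalized counts of all genes, 1369940, 1238010, 1483210, 1695260 and 1753900 in iAs libraries, against 1965430, 1579190, 2086080 and 1614540 in untreated libraries, and the groups overlapped (log2 difference -0.27, SE 0.15, adjusted p = 0.2). Its share of the total was 2.78% ± 0.341 in iAs libraries (SD, n = 5) and 3.43% ± 0.441 in untreated libraries (SD, n = 4; exact permutation p = 0.063, adjusted p = 0.25 over 4 comparisons, where the smallest possible p is 0.0079). The prohormone convertase gene Pcsk2 had 86987, 82036, 83460.3, 92474 and 89883 normalized counts in iAs libraries, against 117067, 120393, 117714 and 117666 in untreated libraries (log2 difference -0.44, SE 0.06, adjusted p = 0.00017). The incretin receptor gene Glp1r (-0.31) and the transcription factor gene Nkx6-1 (-0.46) fell, and the glucose transporter gene Slc2a2 rose (0.53) although its libraries overlapped. Rises numbered 2 without iAs replicate 1 or 3, and falls 3 without iAs replicates 2 or 3 or untreated replicate 3.

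The part of other cells' markers in the results was not tested, and the limit on listed zeros holds for them. Glucagon transcript, Gcg, had 53342, 81058, 62607, 52189 and 56180 normalized counts in libraries labelled iAs, against 86934, 86569, 80236 and 133456 in libraries labelled untreated (log2 difference -0.65, SE 0.16, adjusted p = 0.0084), and the groups overlapped. It made up nearly all of the sum of other islet markers, which ran from 52214 to 81096 in iAs libraries and from 80275 to 133504 in untreated libraries. The sum of 12 hepatocyte markers ran from 2634 to 3071 normalized counts in iAs libraries and from 3403 to 3893 in untreated libraries. Of these, Alb, Apoa2, Cps1, Ttr and Fga had at most 4.22 normalized counts in any library, and Cyp2e1 was listed at 0 in all 9. The sum came from the other markers, which were the 6 tested, and of these 2 fell, Fgb (-1.34) and Ass1 (-0.45). Ass1 had 920 to 1068 normalized counts in iAs libraries and 1266 to 1390 in untreated libraries. Fgb had 211 to 311 in iAs libraries and 493 to 702 in untreated libraries. Exocrine markers summed to 474 to 646 in iAs libraries and 206 to 316 in untreated libraries, with Cpa1, Cpb1, Pnlip, Prss1 and Spp1 listed at 0 in all libraries. Of 2 tested, the duct and progenitor factor gene Sox9 rose, with 482, 379, 350.4, 525 and 489 normalized counts in iAs libraries, against 60.6, 76.5, 100.2 and 101 in untreated libraries (log2 difference 2.40, SE 0.18, adjusted p = 5.9e-06), and Rbpjl fell (-0.57), a call lost without each library except iAs replicate 1 and untreated replicate 1. Of 5 tested markers of fibroblasts, endothelium and immune cells 1 rose, Cd68, and 2 fell, Thy1 (-0.54) and Col1a1 (-1.98). The rise was lost without iAs replicates 1, 3 or 5 or any untreated replicate, and 1 fall was left without iAs replicates 4 or 5 or any untreated replicate.

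Potassium channels set the resting voltage from which beta cells fire and release insulin. Of 61 tested 21 rose and 10 fell (median 0.01), 34.4% and 16.4%, beside 15.1% and 14.9% over all genes. The share of falls was thus near that over all genes. Kcnab3, an accessory subunit of voltage-gated channels, had 714, 573, 551, 714 and 644 normalized counts in libraries labelled iAs, against 129, 157, 177 and 77.1 in libraries labelled untreated (log2 difference 2.29, SE 0.21, adjusted p = 1.8e-05). Kcnk16, a leak channel of islets, had 15332, 19764, 17621, 18363 and 18099 in iAs libraries, against 30442, 28554, 28035 and 31158 in untreated libraries (log2 difference -0.73, SE 0.07, adjusted p = 2.9e-05). The leak channel gene Kcnk3 had 2439.7, 2488, 1858, 2548 and 2565 in iAs libraries, against 1210.3, 1178, 1252 and 1575 in untreated libraries (log2 difference 0.87, SE 0.11, adjusted p = 0.00016). The groups did not overlap for these channels, of which Kcnab3 and Kcnk3 were higher and Kcnk16 lower in iAs libraries. Kcna2 (0.72) rose, and Kcnk1 (-0.38) and Kcnj6 (-0.75) fell. Of 87 tested calcium, sodium and other cation channels 13 rose and 12 fell (median -0.04), 14.9% and 13.8%. The shares over all genes were 15.1% and 14.9%. The calcium channel subunit genes Cacna2d2 (0.73) and Cacng4 (0.47) and the calcium release channel gene Itpr1 (0.43) rose, and Cngb1 (-0.86) and the lysosomal channel gene Mcoln3 (-0.91) fell. Falls numbered 7 without untreated replicate 1.

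Selenoproteins, many of which reduce peroxides or disulfides, had 4 rises and 6 falls among 19 tested (median -0.01). Their shares, 21.1% and 31.6%, stand beside 15.1% and 14.9% over all genes. Gpx3, a secreted glutathione peroxidase, had 10238, 9993, 10048, 10879 and 9974 normalized counts in libraries labelled iAs, against 8164, 8855, 7859 and 8166 in libraries labelled untreated (log2 difference 0.31, SE 0.05, adjusted p = 0.0008). Sephs2, which makes the selenium donor for their synthesis, had 2917, 3569.6, 2932, 3608 and 3393 in iAs libraries, against 4869.7, 4444, 4923 and 4875 in untreated libraries (log2 difference -0.55, SE 0.08, adjusted p = 0.00026). The groups did not overlap for either. Selenop (0.82) and Selenoi (0.34) rose, and Selenok (-0.31) and Txnrd3 (-0.47) fell.

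The largest differences among called genes without overlap, at a mean of 50 or more, included several outside these lists. Cpne9, of the calcium-binding copines, had 496, 720.5, 534, 394 and 340.2 normalized counts in libraries labelled iAs, against 37.2, 53.4, 74.9 and 78.9 in libraries labelled untreated (log2 difference 3.01, SE 0.25, adjusted p = 1.1e-05). Rasgrp2, an exchange factor for the GTPase RAP1, had 374, 410.2, 418, 417 and 325 in iAs libraries, against 80.9, 57.7, 82.3 and 41.5 in untreated libraries (log2 difference 2.60, SE 0.20, adjusted p = 5.9e-06). The receptor phosphatase gene Ptpru had 1372, 747, 951, 994 and 1082 in iAs libraries, against 128, 304, 216 and 168 in untreated libraries (log2 difference 2.37, SE 0.23, adjusted p = 2.9e-05). These were higher in every library labelled iAs, as were Tmem255b (2.50), Gas7 (2.34) and the parathyroid hormone receptor gene Pth1r (2.32). On the lower side, Aox1, an aldehyde oxidase, had 119, 95, 132, 86 and 92.1 normalized counts in iAs libraries, against 431, 445, 481 and 461 in untreated libraries (log2 difference -2.12, SE 0.15, adjusted p = 3.3e-06). Ggt1, which breaks down glutathione outside the cell, had 20.5, 23.9, 19.98, 21 and 18 in iAs libraries, against 101, 57.7, 110.2 and 105 in untreated libraries (log2 difference -2.09, SE 0.25, adjusted p = 0.00012). In Ggt1, untreated replicate 2 lay under the other untreated libraries and above all iAs libraries. Majin (-2.88), Madcam1 (-2.59), Qrich2 (-2.40), Tinagl1 (-2.39), the ubiquitin ligase gene Neurl3 (-2.31) and LOC103694381 (-2.61) completed the 15 largest falls. The lipogenic gene Scd2 (0.56) and Tmem132a (0.52) were among the largest gains in normalized counts, and Pam (-0.83), which amidates peptides, was among the largest losses.

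A few rows were listed at 0 in every library of one group. Mast4, LOC100910308 and a second row of Map2k3 (ENSRNOG00000049132) were at 0 in the 5 libraries labelled iAs, and LOC103693564, Rps15al4, NEWGENE_1562258 and a second row of Rps6 (ENSRNOG00000049025) were at 0 in the 4 labelled untreated. Each was also at 0 in at least 1 library of the other group, so the groups overlapped in all 7. The second Map2k3 row had 39.6, 154, 178 and 0 normalized counts in libraries labelled untreated. Such rows reach the mean of 10 only through the group in which they are high, so no test is given for them. How reads were split among similar rows is not given in the sources used here, and no fold is given.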

How the data were processed

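mRNA of 9 libraries of 1 rat insulinoma line was compared, 5 labelled iAs and 4 labelled untreated. The values are a signal of the authors: the deposited table holds normalized counts per gene, named DESeq2-normalized in the labels. The submitters' processing notes name DESeq2, STAR, Salmon and the build rn6, and versions and roles are not given in the sources used here. Normalized counts are not raw counts and whole reads were not recovered, so no count test was run, and sequencing depth is unknown. Each column was assigned to its sample by the code that the sample's description gives. In 4 libraries the title holds another code of the same group. In 25 rows the symbol had been turned into a date and was kept so.

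The comparison used limma 3.58.1 (R 4.3.3, trend, two-sided) on log2(value + 1), without covariates, over genes whose mean reached 10, adjusted by Benjamini-Hochberg over all 14410 genes, with a threshold of 0.05. Fold changes are on this scale, which understates changes of low genes. Single values per library were compared by exact permutation tests. Lists are described by counts and medians, with no test.

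The members, the lists and the tests were chosen with earlier results of these data known. Genes were named by rule: the 15 largest rises and falls (mean of at least 50, no overlap), up to 3 stable calls each way per list, the 10 most abundant genes, the 8 largest gains and losses, rows at 0 in 1 group, and a fixed set. Members named beyond this were chosen after their values were seen, so they add no independent evidence to their lists. Some go with most calls of their list, such as Nqo1, B2m, Nfkb2, Ctsd, Pklr and Vgf. Others, such as Tfeb and Clock, were not called. Some genes that the rule names are not reported here. Promoter sequences are from RefSeq (GRCr8). The small RNA table was not used here. The closing section gives the alternatives tried for the pseudocount, filter, scaling, covariates and libraries.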

Additional observations from a re-analysis of the deposited data

Results flagged for a closer look

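Among 397 groups of values examined for the named genes, 28 single libraries stood apart from the rest of their group, and chance alone flags about 1 in 20 such groups. Each is given with its normalized counts, followed by the lowest and highest of the other libraries of that group.

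In iAs replicate 2 Maff was high at 669 (364 to 450), Rgs16 at 9485 (6860 to 7252), Gdf15 at 870 (331 to 479), Vgll4 at 2812 (2231 to 2295), Unc5a at 6245 (5443 to 5661) and NEWGENE_1562258 at 300.47 (0 in the others). Col16a1 was low there at 650 (792 to 838) and Thy1 at 5782 (8199 to 8471). In iAs replicate 3, Suz12 was low at 2241 (2476 to 2557) and Kcnk3 at 1858 (2440 to 2565). Wnt5a was high in iAs replicate 5 at 339 (257 to 277) and Tle3 in iAs replicate 1 at 4910 (4286 to 4413).

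In untreated replicate 4, which shares its code ending with iAs replicate 2, Myc was high at 5384 (2738 to 3037), Maff at 1817 (1172 to 1228), Sema4a at 3640 (2985 to 3076) and Gcg at 133456 (80236 to 86934), and Jup was low at 2755 (3252 to 3311). In untreated replicate 2, Ggt1 was low at 57.7 (101 to 110.2), Ctps1 at 2584 (2903 to 2935), Itgb1 at 9410 (10711 to 10964), Sephs2 at 4444 (4870 to 4923), Fgb at 493 (668 to 702), Rplp0 at 104410 (130348 to 134880) and Rack1 at 43159 (52075 to 53323), while Cacng4 was high at 4751 (3727 to 3902) and Nkx6-1 at 10587 (7699 to 8041). In untreated replicate 1, Tgfb2 was low at 180.2 (514 to 533) and Neurl3 high at 291 (259 to 261).

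The iAs effect differed between libraries of code ending 52 and those of other endings in 3 genes by the limma interaction test. LOC100911660 differed by -8.46 in log2 between the endings (-0.94 in ending 52, 7.52 in the others; adjusted p = 0.0020), Dcun1d2 by 7.80 (1.07 and -6.73; adjusted p = 0.014) and Zfp622 by 9.25 (0.80 and -8.45; adjusted p = 0.0014). In each, both libraries of the other endings were at 0 in 1 group, the untreated one for LOC100911660 and the iAs one for Dcun1d2 and Zfp622. The sizes of these differences rest on listed zeros, and how reads were split among similar rows is not given in the sources used here.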

How the results depend on the processing

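The count of 4321 called genes was 4051 to 5278 under 9 settings (pseudocounts, filters, 3 rescalings, robust variance and code ending as a covariate), and 4744 genes had an exact rank-sum p under 0.05, unadjusted. Within code ending 52 alone (3 iAs and 2 untreated libraries) it was 2957. Leaving out 1 library gave 3423 to 4068 called genes, 1754 to 2067 higher and 1669 to 2007 lower. Rescaling to equal totals gave 1787 higher and 2528 lower, with every named gene on its side of the threshold. With a replicate block 2761 genes were called, 1351 higher and 1410 lower, and 8 of 196 named genes lost their call. The same-numbered libraries did not deviate together (correlations from -0.04 to 0.03). So few pairs cannot show whether the numbers pair the libraries, and the labels do not say. The block moved 28 of 70 list counts by more than 1.5 times, the covariate 10, no filter 7 and equal totals 5. With the covariate, immediate-early rises numbered 9, TCA cycle falls 11, axon guidance falls 11 and synthetase falls 8. With equal totals or the covariate, chromatin falls numbered 7 or 8. The interaction called 1 gene with a pseudocount of 10 and 3 with a mean of at least 50. Without a filter Chga lost its call (adjusted p = 0.11). No named gene reversed in the settings run for it. Where not stated, the cause of a moved count was not tested. Genes near 10 normalized counts were called only with large differences, so smaller ones were not detectable.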
